A study of Homo sapiens with 6 samples.

Results

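DKK1 and 9 other genes of the Wnt pathway were followed in MDA-MB-231 cells depleted of BYSL. The 10 genes, chosen by symbol as a secreted antagonist, receptors, membrane ubiquitin ligases, cytoplasmic regulators and nuclear effectors of the pathway, were 10 of the 29538 genes in the count table. All 10 were among the 16412 genes that passed the filter on low counts. MDA-MB-231 is an established human breast cancer line of mesenchymal character, and BYSL encodes bystin, a factor that takes part in maturation of the small ribosomal subunit. Each well was given 160 pmol of a single siRNA duplex against BYSL, SI-BYSL-Homo-838 (siBYSL, 3 biological replicates), or of a negative-control siRNA (siNC, 3 biological replicates). Both groups were transfected with Lipofectamine RNAiMAX, had their medium changed at 6 h and were harvested at 48 h. The labels give no sequence for the control siRNA, and all 6 cultures are of 1 line with 1 BYSL duplex, so p-values measure the spread between these cultures.

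In canonical Wnt signalling, a secreted WNT protein brings a Frizzled receptor together with a co-receptor, LRP5 or LRP6. The destruction complex, built on an AXIN scaffold with APC, GSK3 and casein kinase 1, then stops marking β-catenin for degradation, and β-catenin enters the nucleus and joins TCF/LEF factors on DNA. The pathway carries its own brakes: DKK1 binds LRP5 and LRP6 from outside the cell, AXIN2 rebuilds the destruction complex, and the ubiquitin ligases RNF43 and ZNRF3 remove Frizzled receptors unless R-spondin and an LGR receptor hold them back. AXIN2, LGR5, RNF43, ZNRF3 and DKK1 are known as transcriptional targets of β-catenin in many tissues. DKK1 is also known as a protein that breast cancer cells secrete in bone metastases.

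The bases by which the BYSL duplex could pair with transcripts other than BYSL are shown first, because seed pairing is a known property of siRNAs. Both strands are printed 5′ to 3′ without their overhangs, with the seed (bases 2 to 8) in capitals.
guide (antisense) strand: uAUUCAGCaacgucaucuc
passenger (sense) strand: gAGAUGACguugcugaaua
The longest annotated 3′ UTR of each of the 10 genes was searched for the heptamers that pair with these seeds, GCTGAAT for the guide and GTCATCT for the passenger strand. A guide heptamer was found in 1 of the 10 genes, LRP6, beside 11.9% of the 13072 tested genes with an annotated 3′ UTR. A passenger heptamer was also found in 1 of the 10, RNF43, beside 12.1% of the same genes. The heptamers searched for are in capitals below, within the transcript sequence of GENCODE 29. In RNF43 the bases beside the heptamer, caac before it and c after it, also pair with the passenger strand. In LRP6 the bases next to the heptamer do not pair with the guide strand.
LRP6 on chromosome 12, base 5046 of the 5101-base 3′ UTR: tacaataaataaGCTGAATt
RNF43 on chromosome 17, base 1322 of the 2443-base 3′ UTR: cagggtaacaacGTCATCTc
DKK1, AXIN2, LGR5, CTNNB1, LRP5, TCF7L1, TCF7L2 and ZNRF3 had neither heptamer in the 3′ UTR searched.

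Promoter sequences were compared for the core letters bound by TCF/LEF factors, CTTTGA and CTTTGT, read on both strands in a window from 250 bases before to 50 bases after the transcription start (RefSeq, GRCh38.p14). The 2 hexamers do not overlap each other in the matches below. Of the 10 genes, 6 had an entry, and 3 of these, DKK1, TCF7L2 and RNF43, held at least 1 match; AXIN2, LGR5, LRP6 and ZNRF3 had no entry. Of all 35116 promoter windows in that table, 26.2% held 1 or more. That share is by single window, whereas the 6 entries are counted by gene, and TCF7L2 and RNF43 had more than 1 window each. The 2 shares are therefore not directly comparable. The DKK1 window held 3 matches, the most among the windows of these genes, and 0.886% of all windows held 3 or more. That cut is DKK1's own count, so the share is a description and not a test. The DKK1 window is printed up to the start (GRCh38.p14, chr10:52314031-52314280, plus strand) with the matches in capitals.
DKK1 promoter: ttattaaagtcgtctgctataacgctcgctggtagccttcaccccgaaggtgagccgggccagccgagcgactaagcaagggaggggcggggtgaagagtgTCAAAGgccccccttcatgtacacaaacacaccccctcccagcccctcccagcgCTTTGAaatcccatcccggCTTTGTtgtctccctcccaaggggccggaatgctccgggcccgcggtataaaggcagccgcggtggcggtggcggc
The matches begin 149, 95 and 76 bases before the start, the first of them on the minus strand. TCF7L2 held CTTTGT 133 bases before 1 of its 3 listed starts, and RNF43 held it 90 and 135 bases before its 2 listed starts. Entries for TCF7L1, CTNNB1 and LRP5 held no match, which says only that these letters are not in the window.

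Libraries held 27754883 to 32088817 counted reads in siBYSL and 28606048 to 30476744 in siNC. BYSL itself, the targeted gene, stood at 16.3 ± 0.94 CPM in siBYSL and 99.9 ± 4.9 CPM in siNC (CPM, counts scaled to TMM-adjusted library size; SD, n = 3 each), and every library followed its label. Of the 16412 genes tested, 36.9% passed an adjusted p of 0.05 (edgeR quasi-likelihood test), with 3032 higher and 3027 lower in siBYSL. With library totals in place of TMM scaling the split was 4106 higher and 1989 lower, and with upper-quartile factors 3630 and 2418. The library siBYSL 3 lay apart from the other siBYSL libraries: without it 8004 genes were called, against 6059 with it. All 6 marker genes of mesenchymal breast cancer cells were expressed, summing to 4529 to 4733 CPM in siBYSL and 5405 to 5484 CPM in siNC, with 5 called lower and 1, CD44, called higher. The 6 markers of luminal breast cancer cells summed to 23.6 to 29.6 CPM in siBYSL and 22.7 to 26.3 CPM in siNC, mostly GATA3, ERBB3 and TFF1. GATA3 stood at 14.1 CPM in siBYSL and 13.3 CPM in siNC, and ERBB3 at 7.18 and 7.67 CPM (means), neither of them called. TFF1 rose, from a mean of 3.50 CPM in siNC to 5.19 CPM in siBYSL. The estrogen receptor gene ESR1 had 0 to 0.091 CPM in siBYSL and 0 to 0.071 CPM in siNC. Of 6 markers of blood and endothelial cells 5 had a row; they summed to 17.7 to 21.8 CPM in siBYSL and 15.7 to 18.0 CPM in siNC, mostly CD14 and PECAM1, the 2 that were tested (edgeR adjusted p = 0.172 and 0.0541). The part of these marker levels in the results below was not tested.

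Of the 10 Wnt pathway genes, 1 fell and 5 rose in siBYSL, 6 of 10 called beside 36.9% of all genes tested (18.4% lower and 18.5% higher). DKK1 fell, LGR5, TCF7L1, AXIN2, CTNNB1 and TCF7L2 rose, and LRP5, LRP6, RNF43 and ZNRF3 did not pass the test. Their median log2 fold change was 0.20, beside 0.0066 over all genes tested. The siBYSL and siNC libraries did not overlap for these 6 genes, siBYSL being above for 5 and below for 1, arrangements seen in 24.7% and 24.9% of all genes (49.6% in either direction). The same 6 calls and directions came from edgeR under every other scaling and filter tried, from DESeq2 and from limma-voom.

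DKK1, the secreted antagonist of LRP5 and LRP6, had the largest fall of the 10 and, per kilobase of exon, the highest level of them in both groups. The gene (ENSG00000107984.10) spans bases 52314296 to 52318042 of chromosome 10, plus strand (GENCODE 29, GRCh38). It stood at 289, 287 and 267 CPM in siBYSL 1 to 3, against 565, 556 and 581 CPM in siNC 1 to 3. The groups were far apart, and the spread within each was small beside the gap between them. DKK1 thus fell to 281 ± 12.3 CPM in siBYSL, against 567 ± 12.7 CPM in siNC (SD, n = 3 each), a ratio of 0.495. The log2 fold change was -1.02 (SE 0.054, 95% interval -1.13 to -0.90; edgeR adjusted p = 8.1e-07). In size, this change was larger than that of 96.8% of all genes tested. It ranged from -1.03 to -0.98 when each library was left out in turn. In bulk RNA, fewer cells making DKK1 and less DKK1 RNA per cell cannot be told apart.

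LRP5 and LRP6, the co-receptors that DKK1 binds, did not pass the test. LRP5 stood at 161, 146 and 141 CPM in siBYSL 1 to 3, against 133, 146 and 141 CPM in siNC 1 to 3. The groups overlapped, and the log2 fold change of 0.091 had a 95% interval from -0.046 to 0.23 (edgeR adjusted p = 0.278). LRP6 stood at 38.4, 35.0 and 29.8 CPM in siBYSL 1 to 3, against 28.2, 33.7 and 30.6 CPM in siNC 1 to 3. Its groups overlapped as well, with a log2 fold change of 0.16 and a 95% interval from -0.054 to 0.37 (edgeR adjusted p = 0.223). For both genes siBYSL 3 was the lowest siBYSL library, and without that library both were called higher, LRP5 by 0.13 (edgeR adjusted p = 0.026) and LRP6 by 0.25 (edgeR adjusted p = 0.00425). LRP6 is the gene with the guide heptamer printed above.

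LGR5, a receptor for R-spondins and a marker of intestinal stem cells, had the largest rise of the 10. It had 170, 170 and 136 counts in siBYSL 1 to 3, against 70, 65 and 71 counts in siNC 1 to 3. Scaled, these were 5.89, 5.14 and 4.72 CPM in siBYSL and 2.50, 2.32 and 2.39 CPM in siNC, with no overlap between the groups. The log2 fold change was 1.13 (SE 0.13; edgeR adjusted p = 1.0e-04), larger in size than that of 97.8% of genes tested. LGR5 overlaps TSPAN8 on the opposite strand in GENCODE 29. TSPAN8 had 642, 754 and 710 counts in siBYSL 1 to 3 and 578, 582 and 613 counts in siNC 1 to 3. The libraries were strand-specific, but whether counting used strand is not given in the sources used here, so reads shared between the 2 genes cannot be told apart.

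The ligases RNF43 and ZNRF3, which LGR receptors restrain, showed no change that passed the test. RNF43 stood at 5.93, 7.53 and 8.61 CPM in siBYSL 1 to 3, against 8.80, 7.63 and 8.25 CPM in siNC 1 to 3. The siBYSL libraries spread over a wider range than the siNC libraries and overlapped them, with a log2 fold change of -0.16 and a 95% interval from -0.45 to 0.13 (edgeR adjusted p = 0.364). It was -0.28 without siBYSL 3 (edgeR adjusted p = 0.0501) and -0.029 without siBYSL 1 (edgeR adjusted p = 0.868). RNF43 counts are uncertain, since GENCODE 29 places SUPT4H1 and the gene AC004687.2 over it on the same strand. SUPT4H1, counted far above RNF43, had 2530, 2928 and 2851 counts in siBYSL 1 to 3 and 3206, 3127 and 3447 counts in siNC 1 to 3. The part of SUPT4H1 reads in the RNF43 counts was not tested. AC004687.2 had 95, 63 and 46 counts in siBYSL 1 to 3 and 84, 79 and 94 counts in siNC 1 to 3, so it was highest in the siBYSL library where RNF43 was lowest. Summed, RNF43 and AC004687.2 stood at 9.22, 9.44 and 10.2 CPM in siBYSL and 11.8, 10.5 and 11.4 CPM in siNC. Unlike RNF43 alone, the sum did not overlap between groups, with siBYSL below, an arrangement seen in 24.9% of all genes tested. The sum itself was not tested. ZNRF3 had the smallest fold change of the 10, at 8.98, 7.99 and 7.64 CPM in siBYSL 1 to 3 and 8.23, 8.24 and 8.29 CPM in siNC 1 to 3. Its groups overlapped, and the log2 fold change of -0.0098, which was 0.069 with library totals, had a 95% interval from -0.22 to 0.20 (edgeR adjusted p = 0.945).

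**Figure D1:**
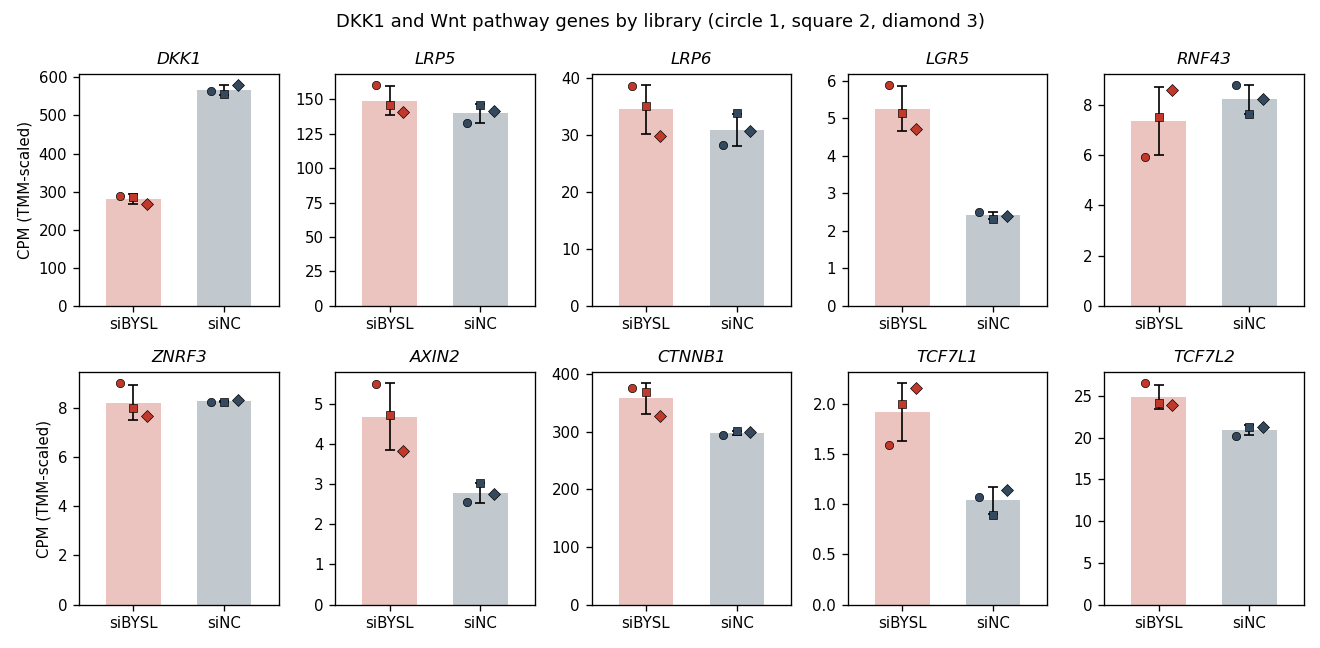
Level of each of the 10 genes in CPM (counts scaled to TMM-adjusted library size, linear axes from 0) in the 3 siBYSL libraries (left, red) and the 3 siNC libraries (right, dark); bars are means, whiskers are SD, and symbols are libraries 1 to 3. DKK1 is lower in every siBYSL library, while LGR5, AXIN2, CTNNB1, TCF7L1 and TCF7L2 are higher in every siBYSL library.

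AXIN2, the scaffold of the destruction complex most often used as a readout of β-catenin activity, rose. It had 158, 156 and 110 counts in siBYSL 1 to 3, against 71, 85 and 82 counts in siNC 1 to 3. These correspond to 5.48, 4.72 and 3.82 CPM in siBYSL and 2.54, 3.03 and 2.76 CPM in siNC. The groups did not overlap, although siBYSL 3 came near to the siNC libraries. The log2 fold change was 0.75 (SE 0.16; edgeR adjusted p = 0.0035), with a range of 0.63 to 0.87 when single libraries were left out. At this level the 95% interval was wide, from 0.41 to 1.09.

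CTNNB1, which encodes β-catenin, rose by a small amount. It stood at 376, 370 and 328 CPM in siBYSL 1 to 3, against 294, 302 and 299 CPM in siNC 1 to 3. The siNC libraries lay close together and all siBYSL libraries lay above them. The log2 fold change of 0.26 (SE 0.060; edgeR adjusted p = 0.00581) was close in size to the median absolute change of 0.21 over all genes tested. β-catenin is regulated mainly through the stability of its protein, which was not measured here.

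TCF7L1 and TCF7L2 encode TCF/LEF factors through which β-catenin acts, TCF7L1 being known mostly as a repressor. TCF7L1 was the least abundant of the 10, with 46, 66 and 62 counts in siBYSL 1 to 3 and 30, 25 and 34 counts in siNC 1 to 3. In scaled units it rose to 1.91 ± 0.29 CPM in siBYSL, against 1.04 ± 0.13 CPM in siNC (SD, n = 3 each), with no overlap and a log2 fold change of 0.88 (SE 0.20; edgeR adjusted p = 0.0055). TCF7L2 stood at 26.5, 24.1 and 23.9 CPM in siBYSL 1 to 3, against 20.2, 21.3 and 21.2 CPM in siNC 1 to 3. Its rise of 0.25 (SE 0.068; edgeR adjusted p = 0.0158) was the weakest call of the 6. It was lost without siBYSL 1 (0.20, edgeR adjusted p = 0.0524), without siNC 1 (0.22, edgeR adjusted p = 0.0737) and without siNC 3 (0.26, edgeR adjusted p = 0.0543).

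**Figure D2:**
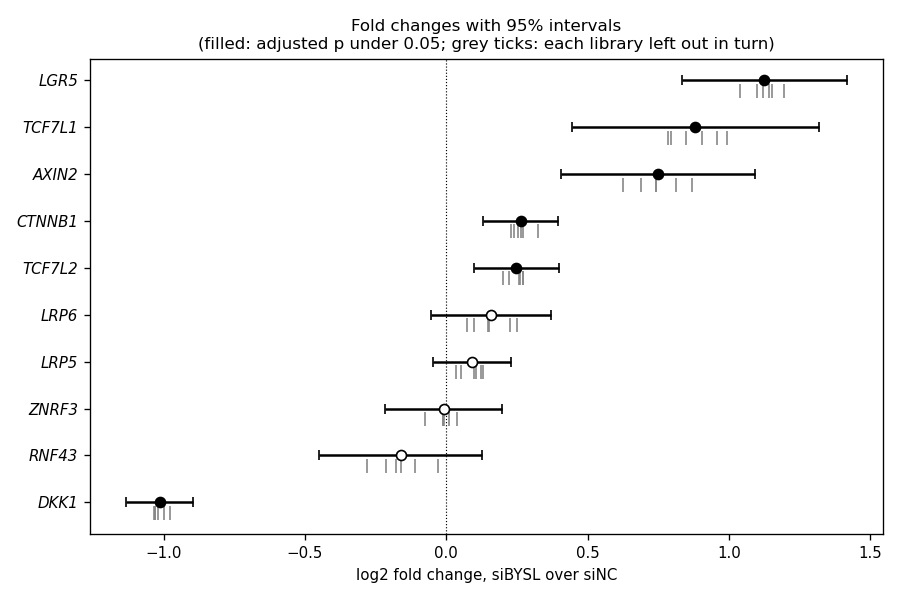
Log2 fold change of each of the 10 genes, siBYSL over siNC, with its 95% interval from the edgeR fit; filled points passed an adjusted p of 0.05 and grey ticks give the value with each library left out in turn. DKK1 stands alone at -1.02, LGR5 is highest at 1.13, and the intervals of LRP5, LRP6, RNF43 and ZNRF3 include 0.

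Levels of the 10 genes were ordered per length, as mean CPM per kilobase of annotated exons in GENCODE 29, which may differ from the annotation used for counting. In siBYSL the order was DKK1 (127 ± 5.6), CTNNB1 (30.0 ± 2.2), LRP5 (24.2 ± 1.7), TCF7L2 (3.69 ± 0.21), LRP6 (3.33 ± 0.42), ZNRF3 (1.18 ± 0.10), LGR5 (1.00 ± 0.11), RNF43 (0.98 ± 0.18), AXIN2 (0.89 ± 0.16) and TCF7L1 (0.43 ± 0.065), all in CPM per kilobase (SD, n = 3). The libraries of neighbours overlapped for TCF7L2 and LRP6 and along the run from ZNRF3 to AXIN2. In siNC the order was DKK1 (257 ± 5.8), CTNNB1 (25.0 ± 0.33), LRP5 (22.7 ± 1.1), TCF7L2 (3.10 ± 0.088), LRP6 (2.98 ± 0.27), ZNRF3 (1.18 ± 0.0043), RNF43 (1.10 ± 0.078), AXIN2 (0.53 ± 0.047), LGR5 (0.46 ± 0.018) and TCF7L1 (0.23 ± 0.030). Among siNC neighbours TCF7L2 and LRP6 overlapped and the others did not. LGR5 thus ranked below RNF43 and AXIN2 in siNC and overlapped both in siBYSL.

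Within siBYSL the 10 genes differed between libraries. siBYSL 3 was the lowest siBYSL library for 8 of the 10 and the highest for 2, TCF7L1 and RNF43, while over all genes tested it was lowest for 43.7% and highest for 38.7%. Without siBYSL 3, 7 of the 10 were called higher and 1 lower, the additions being LRP5 and LRP6. What sets that library apart was not tested.

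The genes whose profile over the 6 libraries came nearest to that of DKK1 were sought among 9704 other genes with a mean of 10 CPM or more. Likeness was the root-mean-square difference of log2 CPM after centring each gene on its siNC mean. The 5 nearest were GMFB (0.035), DEGS1 (0.035), EIF2AK1 (0.039), PTBP3 (0.040) and SFXN1 (0.043). EIF2AK1 encodes the haem-regulated kinase of translation factor eIF2α, DEGS1 a desaturase of ceramide synthesis, PTBP3 an RNA-binding protein and SFXN1 a mitochondrial serine transporter. GMFB stood at 103 ± 6.0 CPM in siBYSL and 214 ± 4.5 CPM in siNC, and DEGS1 at 133 ± 3.3 CPM in siBYSL and 263 ± 6.5 CPM in siNC (SD, n = 3 each). The log2 fold changes of the 5 ran from -1.05 to -0.98, so the likeness lies mostly in the size of the fall.

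Other genes of the pathway were described in 8 lists holding 144 genes, of which 128 had a row in the table and 109 were tested. Of these 109, 35 rose and 20 fell. A guide heptamer in the 3′ UTR was held by 4 of the 20 that fell (AMER1, FRAT2, NFATC2 and PKP2), 4 of the 35 that rose (WNT4, WNT9A, EPHB2 and PRICKLE2) and 8 of the 54 not called. Over all 13072 tested genes with an annotated 3′ UTR the share was 11.9%. That share was not split by direction of change, and a part of seed pairing in these calls was not tested. The lists were drawn up from general knowledge of the pathway, with earlier results of these data known. Their counts stand beside the 18.5% of all genes that rose and the 18.4% that fell.

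Among WNT ligands and the genes for their secretion, rises were the only calls. Of 21 listed genes 16 had a row and 12 were tested, and 6 rose and 0 fell, with a median log2 fold change of 0.56. At an unadjusted p under 0.05, 1 gene was lower: PORCN, the acyltransferase that lipid-modifies WNT proteins, which stood at 21.3, 22.4 and 21.9 CPM in siBYSL and 24.8, 24.1 and 24.6 CPM in siNC (log2 fold change -0.17, edgeR adjusted p = 0.0563). DESeq2 and limma-voom also called 6 higher and 0 lower, and without siBYSL 3 edgeR called 7 higher and 1 lower. WNT7B, a ligand of the canonical pathway, stood at 31.9, 34.1 and 32.4 CPM in siBYSL 1 to 3, against 19.6, 19.6 and 17.5 CPM in siNC 1 to 3. Its groups were well separated, with a log2 fold change of 0.80 (SE 0.069; edgeR adjusted p = 1.5e-05). WNT9A stood at 9.98, 10.8 and 10.9 CPM in siBYSL, against 6.55, 6.96 and 7.07 CPM in siNC (0.62, SE 0.089; edgeR adjusted p = 3.3e-04), and its 3′ UTR held a guide heptamer. WNT3 stood at 10.9, 9.32 and 11.1 CPM in siBYSL and 6.87, 7.71 and 7.51 CPM in siNC (0.50, SE 0.10; edgeR adjusted p = 0.00283).

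WNT11, a ligand known mainly for β-catenin-independent signalling, was scarce in siNC. It had 48, 48 and 42 counts in siBYSL 1 to 3, against 4, 5 and 9 counts in siNC 1 to 3. Its mean was 1.52 ± 0.12 CPM in siBYSL and 0.21 ± 0.084 CPM in siNC (SD, n = 3 each), and the fitted log2 fold change was 2.83 (SE 0.29; edgeR adjusted p = 4.2e-05). The other rises, named after their values were seen, were WNT4 (1.29, edgeR adjusted p = 0.00458) and WNT10B (0.65, edgeR adjusted p = 0.0116). WNT4 was scarce in both groups, with 26, 22 and 25 counts in siBYSL 1 to 3 and 9, 9 and 10 counts in siNC 1 to 3. Its means were 0.81 CPM in siBYSL and 0.33 CPM in siNC. WNT5B, at 25.1 ± 2.0 CPM in siBYSL and 24.5 ± 0.12 CPM in siNC, and WLS, which carries WNT proteins to the cell surface, at 86.4 ± 4.7 CPM in siBYSL and 89.3 ± 1.2 CPM in siNC, did not pass the test (SD, n = 3 each). Summed over the 14 WNT genes with a row, the level was 91.0, 91.8 and 95.1 CPM in siBYSL 1 to 3, against 66.4, 68.3 and 65.0 CPM in siNC 1 to 3.

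**Figure D3:**
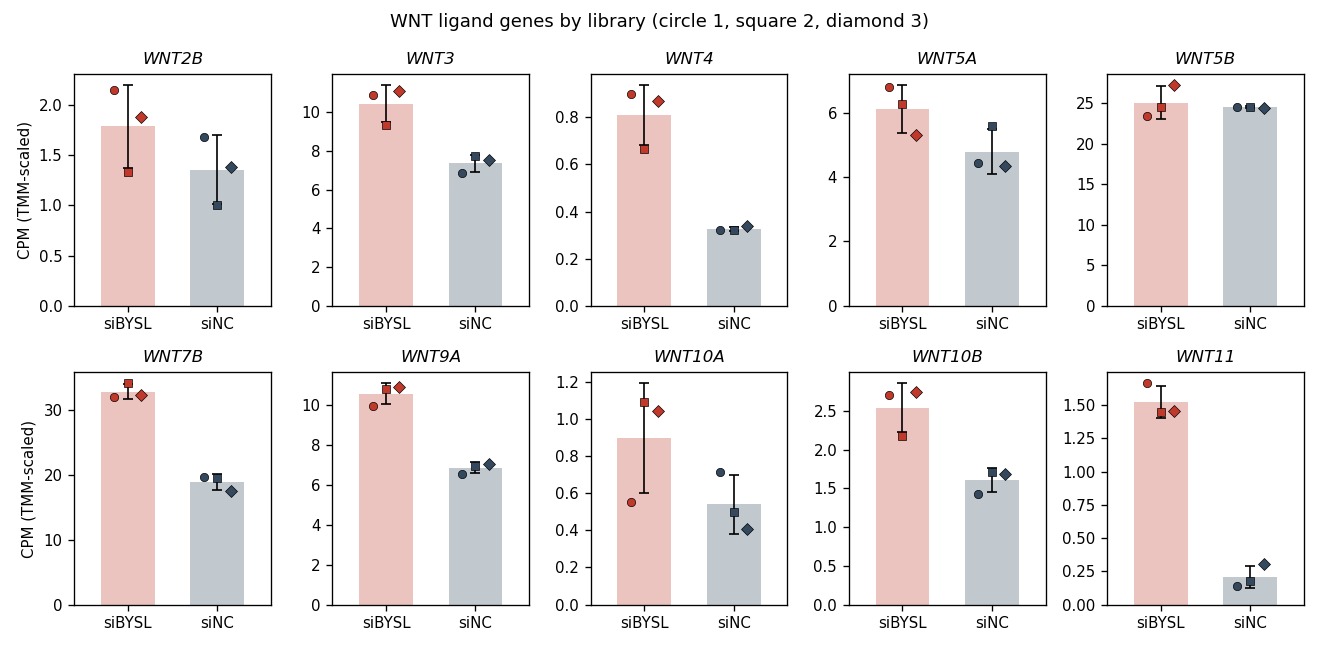
Level in CPM (linear axes from 0) of the 10 WNT ligand genes that passed the filter on low counts, in the 3 siBYSL libraries (left, red) and the 3 siNC libraries (right, dark); bars are means, whiskers are SD, and symbols are libraries 1 to 3. WNT7B, WNT9A, WNT3, WNT10B, WNT4 and WNT11 lie higher in every siBYSL library, and WNT5B, WNT5A, WNT2B and WNT10A overlap between groups.

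Of the other secreted inhibitors and the R-spondins, few were expressed: 6 of 20 were tested, of which 2 rose and 1 fell (median 0.27). KREMEN1, a receptor for DKK proteins, stood at 9.95, 9.38 and 8.82 CPM in siBYSL and 6.58, 7.71 and 7.55 CPM in siNC (log2 fold change 0.37, SE 0.098; edgeR adjusted p = 0.0137). DKK3, a divergent relative of DKK1, stood at 3.02, 3.03 and 2.57 CPM in siBYSL and 4.08, 4.10 and 3.50 CPM in siNC (-0.44, SE 0.13; edgeR adjusted p = 0.0265). SFRP1, a secreted WNT-binding protein, stood at 0.64 ± 0.074 CPM in siBYSL and 0.36 ± 0.057 CPM in siNC (0.81; edgeR adjusted p = 0.0461; SD, n = 3 each). The calls of DKK3 and SFRP1 were lost under 6 and 10 of the 14 alternatives, leaving KREMEN1 as the steadier call, lost without siNC 1 (edgeR adjusted p = 0.0668). The list had 1 call without siBYSL 2, siBYSL 3 or siNC 2 and 0 without siNC 1 (edgeR).

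Of 9 tested Frizzled and R-spondin receptors other than LGR5, 2 rose and 1 fell, with a median of 0.057, a share of calls close to the 36.9% over all genes. LGR4, the relative of LGR5 that is more widely expressed, stood at 98.6, 93.5 and 71.7 CPM in siBYSL 1 to 3, against 71.0, 72.4 and 70.3 CPM in siNC 1 to 3. Its siBYSL 3 value lay within the siNC range, and the call (0.30, SE 0.098; edgeR adjusted p = 0.0317) was lost without any single library other than siBYSL 3. FZD8 (0.29, edgeR adjusted p = 0.0459) and FZD2 (-0.22, edgeR adjusted p = 0.0166) were called too, and these calls were lost under 7 and 4 of the 14 alternatives. The list had 1 call without siBYSL 1, siNC 2 or siNC 3 and 0 without siBYSL 2 or siNC 1 (edgeR).

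Genes of Dishevelled and the destruction complex moved in both directions. Among 23 tested, 4 rose and 8 fell with a median of -0.027, while with library totals 5 rose and 5 fell with a median of 0.052. TNKS2, a tankyrase that marks AXIN proteins for degradation, had 42.6, 38.3 and 35.5 CPM in siBYSL and 55.4, 59.7 and 59.8 CPM in siNC (-0.59, SE 0.073; edgeR adjusted p = 1.4e-04). AMER1, a scaffold that helps APC at the membrane, had 3.26, 3.69 and 3.37 CPM in siBYSL and 5.80, 5.42 and 5.66 CPM in siNC (-0.71, SE 0.11; edgeR adjusted p = 6.7e-04). BTRC, the ligase subunit that recognises phosphorylated β-catenin, fell by 0.41 and the kinase gene GSK3A by 0.31. The groups did not overlap for any of these 4 genes. AMER1 held a guide heptamer in its 3′ UTR. The 4 rises, also without overlap, included the second GSK3 gene, GSK3B (0.31, edgeR adjusted p = 0.00488), and AXIN1 (0.30, edgeR adjusted p = 0.00584). CSNK1G1 (0.38, edgeR adjusted p = 0.00225) and DVL2 (0.29, edgeR adjusted p = 0.0031) made up the rest.

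Nuclear partners of β-catenin held 3 rises and 2 falls among 16 tested (median 0.12; 5 rose and 0 fell with library totals). The 5 calls became 3 without siBYSL 2 or siNC 3 and 8 without siBYSL 3. TLE5, a short member of the Groucho family that counteracts the longer corepressors, stood at 251, 265 and 296 CPM in siBYSL, against 169, 160 and 163 CPM in siNC (0.72, SE 0.065; edgeR adjusted p = 1.7e-05). TLE3, a full-length Groucho corepressor of TCF factors, stood at 61.8, 54.8 and 59.2 CPM in siBYSL, against 38.5, 40.6 and 38.5 CPM in siNC (0.58, SE 0.062; edgeR adjusted p = 5.6e-05). PYGO1, a coactivator that joins β-catenin through BCL9, was called at 0.35, a call lost without siBYSL 2 and without siNC 1 (edgeR adjusted p up to 0.0645). The corepressor CTBP2 was called at -0.19, a call lost with library totals, without siNC 2 and without siNC 3 (edgeR adjusted p up to 0.151).

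Known transcriptional targets were divided. Of 15 tested, 6 rose and 4 fell (median 0.055; 6 rose and 1 fell with library totals and with upper-quartile factors). The 10 calls became 6 without siBYSL 2 or siNC 1 and 4 without siNC 2 or siNC 3. EPHB3 and EPHB2, ephrin receptors controlled by β-catenin in the intestine, rose: EPHB3 stood at 1.94, 2.12 and 2.19 CPM in siBYSL and 1.11, 1.11 and 1.21 CPM in siNC (0.86, SE 0.17; edgeR adjusted p = 0.00244). EPHB2 stood at 77.9, 76.2 and 74.9 CPM in siBYSL and 57.6, 59.4 and 57.5 CPM in siNC (0.39, SE 0.051; edgeR adjusted p = 1.8e-04), with a guide heptamer in its 3′ UTR. The transcription factor gene ETS2 rose by 0.43. Cyclin D1, CCND1, went the other way, at 537, 507 and 503 CPM in siBYSL, against 650, 658 and 638 CPM in siNC (-0.33, SE 0.052; edgeR adjusted p = 6.2e-04). The groups did not overlap for any of these 4 genes. The remaining falls were SP5 (-0.34), PPARD (-0.18) and JUN (-0.18), and the remaining rises BAMBI (0.30), CD44 (0.19) and SOX9 (0.18). MYC was not called (0.055, edgeR adjusted p = 0.503).

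The β-catenin-independent branch, which steers cell polarity and movement, held more rises than falls. Of 20 tested genes 9 rose and 3 fell, with a median of 0.14. Without siBYSL 1 edgeR called 6 higher and 4 lower. CELSR1, a cadherin of planar cell polarity, stood at 21.6 ± 0.65 CPM in siBYSL, against 11.5 ± 0.67 CPM in siNC (SD, n = 3 each), with no overlap (0.91, SE 0.074; edgeR adjusted p = 9.8e-06). VANGL1, its membrane partner in that system, stood at 102, 103 and 89.2 CPM in siBYSL, against 59.5, 65.4 and 64.4 CPM in siNC (0.63, SE 0.067; edgeR adjusted p = 5.1e-05). DAAM1, a formin that links Dishevelled to RHOA, rose by 0.52. RHOA itself fell to 713 ± 7.9 CPM in siBYSL, against 945 ± 9.3 CPM in siNC (SD, n = 3 each). Its groups did not overlap (log2 fold change -0.41, edgeR adjusted p = 1.1e-04). NFATC2, a calcium-dependent transcription factor with 3 guide heptamers in its 3′ UTR, fell by 0.72 to 10.1 ± 0.30 CPM in siBYSL, against 16.6 ± 1.1 CPM in siNC (SD, n = 3 each). Its relatives were divided: NFATC1 rose by 0.57 (edgeR adjusted p = 0.0051) and NFATC3 fell by 0.19 (edgeR adjusted p = 0.0335).

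Cadherins and catenins of the cell junction, which hold a second pool of β-catenin, gave 3 rises and 1 fall among 8 tested (median 0.22). CDH1, E-cadherin, stood at 9.57, 10.0 and 7.92 CPM in siBYSL 1 to 3, against 4.37, 4.57 and 4.51 CPM in siNC 1 to 3 (1.04, SE 0.11; edgeR adjusted p = 6.6e-05). JUP, the β-catenin relative plakoglobin, stood at 49.1, 49.0 and 48.7 CPM in siBYSL, against 38.3, 40.7 and 40.2 CPM in siNC (0.30, SE 0.055; edgeR adjusted p = 0.00161). The mesenchymal cadherin CDH11 was called at 0.27 with overlapping groups, a call lost under 4 of the 14 alternatives. PKP2, a desmosomal plakophilin with a guide heptamer, fell by 0.55.

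**Figure D4:**
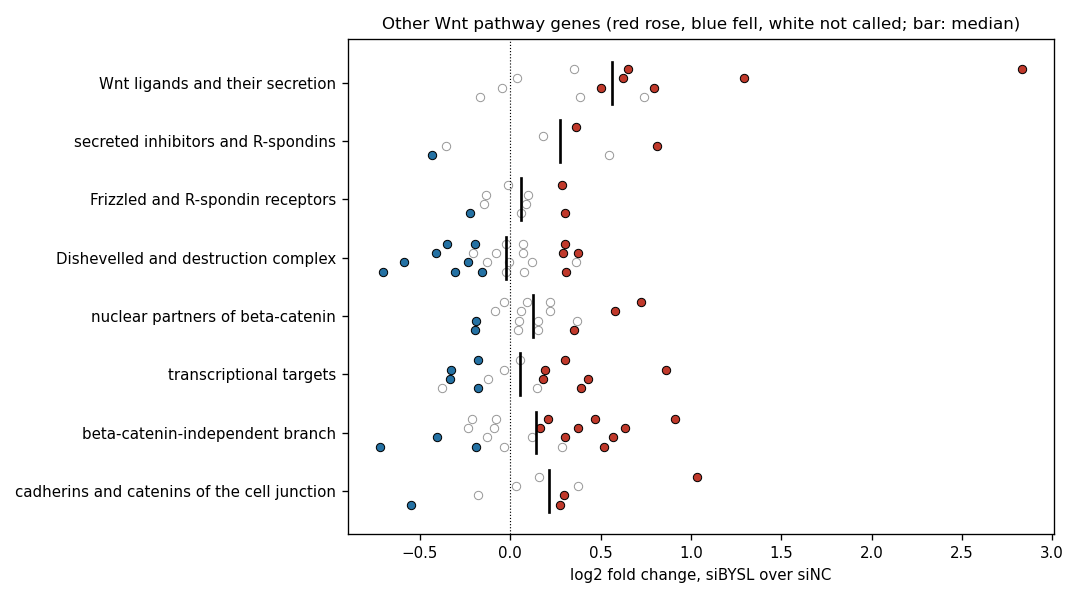
Log2 fold change, siBYSL over siNC, of the 109 tested genes of 8 further Wnt pathway lists; each point is a gene, red for genes that rose, blue for genes that fell, white for genes not called, and the black bar is the median of the list. The WNT ligand list has the highest median at 0.56, and the destruction complex list lies near 0, at -0.027 here and at 0.052 with library totals.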

How the data were processed

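The authors deposited 1 table of raw counts per gene, as whole numbers, for strand-specific poly(A) libraries from 3 siBYSL and 3 siNC cultures, which the labels call biological replicates. Per the submitters' processing notes, the tools were HISAT2 and DESeq2 and the build was GRCh38.p13. For the counting step, its annotation and its filters: not given in the sources used here.

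Counts were filtered with filterByExpr, scaled with TMM factors and compared in edgeR with robust quasi-likelihood F tests on group across all 16412 genes, with Benjamini-Hochberg adjustment and a threshold of 0.05. The SE is the absolute log2 fold change over the square root of F. Tools were edgeR 4.0.16, DESeq2 1.42.0 and limma 3.58.1 under R 4.3.3, with pandas 2.3.3 and Matplotlib 3.10.9 under Python 3.11.15. The edgeR script was tested on simulated data. Depth was 27754883 to 32088817 counts per library; low genes carry wider errors. Alternatives were other scalings, filters and tests, a replicate block and each library left out.

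The 10 genes, the lists and the tests were chosen with earlier results of these data known. In each list the genes named were the called genes with the smallest p, up to 4. PORCN, WLS, WNT5B, WNT4, WNT10B, FRAT2, PRICKLE2 and RHOA were named after their values were seen. The same holds for GSK3B, AXIN1, CSNK1G1, DVL2, NFATC1, NFATC3, SP5, PPARD, JUN, BAMBI, SOX9 and MYC. Coordinates, exon lengths and 3′ UTRs came from GENCODE 29 (GRCh38), matched by identifier without version, since versions differ; promoters came from RefSeq (GRCh38.p14).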

Additional observations from a re-analysis of the deposited data

How the results depend on the processing

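Under 8 alternatives with all 6 libraries (3 scalings, 2 filters, DESeq2, limma-voom and the replicate block), 6 of the 10 genes were called each time. ZNRF3, not called, changed sign with library totals (0.069) and upper-quartile factors (0.034); with single libraries left out it ran from -0.077 to 0.036. Leaving out libraries gave 5 to 8 of the 10 called, 0.20 to 0.27 for TCF7L2, 0.036 to 0.13 for LRP5, 0.075 to 0.25 for LRP6 and -0.28 to -0.029 for RNF43. List counts then ran from 0 to 2 for secreted inhibitors (1 with the DESeq2 Wald test, against 3), 0 to 4 for receptors (against 3), 3 to 8 for nuclear partners (against 5) and 4 to 11 for targets (against 10); the cause was not tested. Same-numbered libraries did not deviate together (r = -0.129, 0.0596 and 0.0106 over genes), and 1 of 3 siBYSL libraries was nearest to the siNC library of its own number, so the numbers were not taken as pairs; with the replicate block 5566 genes were called, against 6059, and the same 6 of the 10. Depth limits the scarce genes: the SE was 0.20 for TCF7L1 and 0.16 for AXIN2, against 0.060 for CTNNB1.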

Other observations

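Genes that overlap the 10 in GENCODE 29 were counted as well. PRKG1-AS1, on the strand opposite to DKK1, had 66, 63 and 56 counts in siBYSL 1 to 3 and 81, 79 and 99 counts in siNC 1 to 3. AL158212.2, on the strand opposite to TCF7L2, had 19, 18 and 14 counts in siBYSL 1 to 3 and 8, 11 and 5 counts in siNC 1 to 3. ULK4, on the strand opposite to CTNNB1, had 156, 156 and 136 counts in siBYSL 1 to 3 and 147, 188 and 179 counts in siNC 1 to 3. AC004805.1, on the same strand as AXIN2, had 25, 34 and 29 counts in siBYSL 1 to 3 and 18, 24 and 27 counts in siNC 1 to 3. In every library each of these counts was below that of the Wnt pathway gene overlapped.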
